A study of Mus musculus with 10 samples.

Results

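The genes described here are 10 textbook targets of NRF2, the transcription factor that drives the antioxidant programme of most mammalian cells. They were chosen by symbol and are Nqo1, Hmox1, Gclc, Gclm, Txnrd1, Srxn1, Slc7a11, Gsr, G6pdx and Me1. Each matched 1 row of a deposited table of 37991 Ensembl gene identifiers. All 10 of 10 were among the 12054 genes tested, those averaging 1 FPKM or more (FPKM are fragments scaled to transcript length and to the library's mapped total). The RNA came from primary keratinocytes, the main cells of the epidermis, taken from pups at postnatal day 4 to 5 and kept on collagen in a serum-free medium with 0.05 mM CaCl2. The study asked what loss of BCL10, which links CARD proteins to the protease MALT1 in NF-kB signalling, does to these cells and to their answer to the cytokine IL-17A. Pups labelled knockout were Bcl10-/- and gave 2 cultures, and littermates labelled heterozygous were Bcl10+/- and gave 3 cultures. Both genotypes carried the allele Bcl10tm1Mak, so the comparison held no culture with 2 normal copies. Libraries of a genotype with the same replicate number are taken here as 1 culture, which the labels do not state. Each culture so defined has 1 library after 5 h with recombinant mouse IL-17A at 200 ng/mL and 1 unstimulated library. The sources used here do not give which bases Bcl10tm1Mak removes.

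NRF2, encoded by Nfe2l2, is kept scarce by KEAP1, which presents it to a CUL3 and RBX1 ubiquitin ligase for destruction. Oxidants and electrophiles modify KEAP1, and NRF2 then accumulates, pairs with a small MAF protein and binds antioxidant response elements near its target genes, where BACH1 competes for the same elements. In the epidermis, which meets oxygen, sunlight and reactive chemicals, this programme is known for protecting keratinocytes and for influencing cornification.

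The element that NRF2 and small MAF proteins recognise is shown in the promoters of the members, because it is the feature that makes them a set. RefSeq promoter windows of 300 bases (250 before and 50 after a start site, build GRCm38.p6) were on hand for 7 of the 10 genes. Hmox1, Gclc and Gsr are named only. The core TGACNNNGC, searched on both strands, stood in the windows of 5 of 7 member genes, against 14% of all 27025 genes with a window. Counted by window, it was in 5 of 10 member windows, against 12.4% of all 32851 windows. The sequences run 5′ to 3′ on the gene's strand and end at or before the start site, except for the last bases of the Me1 core. The core is in capitals, and where the capitals begin with GC it reads on the opposite strand.
Gclm, chr3:122245398-122245456, plus strand: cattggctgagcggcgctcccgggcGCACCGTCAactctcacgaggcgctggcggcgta
Me1, chr9:86695912-86695945, minus strand: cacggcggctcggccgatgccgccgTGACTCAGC
Txnrd1, chr10:82859089-82859147, plus strand: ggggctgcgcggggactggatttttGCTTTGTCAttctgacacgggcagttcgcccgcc
G6pdx, chrX:74428904-74428962, minus strand: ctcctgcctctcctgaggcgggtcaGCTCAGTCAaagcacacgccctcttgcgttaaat
Read on its own strand, the core was TGACGGTGC in Gclm, TGACTCAGC in Me1, TGACAAAGC in Txnrd1, TGACTGAGC in G6pdx and, 28 bases after the start, TGACCTAGC in Srxn1. The first base of the printed capitals lay 134 bases before the start in Gclm, 92 in Txnrd1, 57 in G6pdx and 6 in Me1. Txnrd1 and Me1 have further annotated windows without the core. The Me1 core also contains TGACTCA, the motif of AP-1, which on either strand was in 2 of 7 member genes and in 5.95% of all genes. The windows of Nqo1 and Slc7a11 held no core. The bases before the Nqo1 start are shown because, over all 5 cultures, Nqo1 had the largest genotype difference of the 10 genes, although Hmox1 exceeded it with number set as a term and within numbers 1 to 14 with IL-17A.
Nqo1, chr8:107403206-107403455, minus strand: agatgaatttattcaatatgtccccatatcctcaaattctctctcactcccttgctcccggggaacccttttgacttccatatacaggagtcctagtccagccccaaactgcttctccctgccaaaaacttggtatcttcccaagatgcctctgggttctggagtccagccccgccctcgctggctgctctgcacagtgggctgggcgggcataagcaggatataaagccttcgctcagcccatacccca
A match is a description of letters and not a binding site, and the lack of one says only that these letters are not in this window.

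Bcl10, the targeted gene, checked the genotype labels. It stood at 16.4 and 0.969 FPKM in the IL-17A and the unstimulated library of knockout culture 1, and at 16.6 and 17 FPKM in those of knockout culture 2. Heterozygous cultures 2 and 3 had 59.5 to 72.3 FPKM, but heterozygous culture 1, by its label, had 16.3 FPKM with IL-17A and 18 FPKM unstimulated, near 3 of the 4 knockout libraries, a level that goes against that label. The 2 libraries of knockout culture 1 were also far apart, which leaves their labels or their pairing as 1 culture in doubt. Whether 16.4 to 17 FPKM is a knockout level cannot be told, as the bases removed are not given. Knockout and heterozygous therefore mean libraries labelled so, here and in what follows. Heterozygous culture 1 shares library numbers 1 to 14 with both knockout cultures, whereas heterozygous cultures 2 and 3 carry numbers 33 to 38. Genotype and number set therefore cannot be told apart for cultures 2 and 3, all genotype directions follow the labels as given, and each member's genotype difference is given with and without heterozygous culture 1. Every fit without heterozygous culture 1 compares the 2 number sets as much as the 2 genotypes, so a gene passing there is not a result for genotype alone. With number set as a term, the difference of culture means sets the knockout cultures against heterozygous culture 1 alone. It therefore rests on the culture whose Bcl10 level goes against its label. Estimated depths were 15.9 to 50 M fragments per library, at which 3 fragments in a gene of 1 kb correspond to 0.06 to 0.189 FPKM, far below every value of the 10 genes. In the unstimulated library of knockout culture 1 the 10 most abundant genes took up 12.6% of the FPKM total, compared with 8.21% to 8.66% in each remaining library. Whether each culture number is a separate pup is unstated, so a p-value here reflects only how these libraries vary, and that variation may be technical.

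The 10 genes spanned about 1 order of magnitude, and all stood well above the floor in every library. By mean level over the 10 libraries (SD across libraries) Txnrd1 came first at 65.2 ± 8.15 FPKM, followed by Hmox1 at 32.7 ± 7.45 and Gsr at 29.8 ± 1.47. G6pdx had 24.2 ± 2.25 FPKM, Gclc 22.5 ± 3.34, Me1 12.3 ± 1.28 and Srxn1 12 ± 1.55. Nqo1 (7.84 ± 2.39 FPKM), Slc7a11 (7.20 ± 1.76) and Gclm (6.35 ± 0.475) were lowest. Neighbours in this order had overlapping ranges, except Txnrd1 over Hmox1 and Gclc over Me1, where the lowest library of the first gene was above the highest of the second. The spread between cultures was wide for some members and narrow for others. The SD of the 5 culture means on the log2(FPKM + 1) scale was 0.41 for Nqo1, 0.35 for Hmox1 and 0.32 for Slc7a11, but 0.09 for Gclm and 0.05 for Gsr. The mean size of the IL-17A change within a culture was 0.05 to 0.25 on the same scale, largest for Srxn1.

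**Figure D1:**
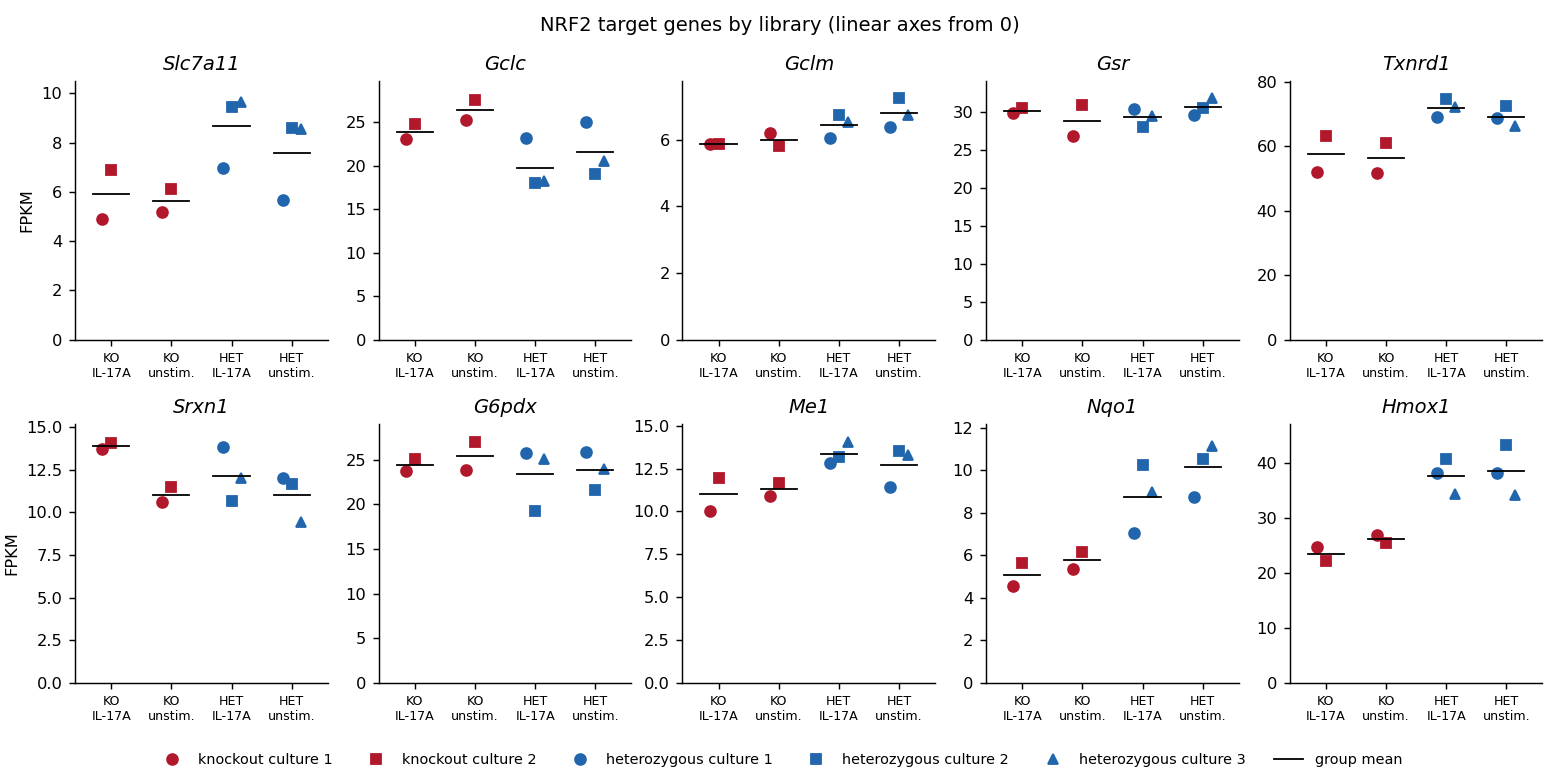
Level of each of the 10 genes in FPKM (vertical axes, linear and starting at 0) in every library, by labelled genotype and treatment. Red marks are knockout (KO) cultures, blue marks heterozygous (HET) cultures, symbols give the culture number, and lines are group means. All KO points of Nqo1, Hmox1 and Txnrd1 lie below all HET points, whereas in Slc7a11 and Gclc the blue circles of heterozygous culture 1 lie beside the red points.

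The enzymes that dispose of quinones and haem had the largest differences of the 10 genes between the labelled genotypes over all 5 cultures, and neither passed there. Nqo1 (ENSMUSG00000003849, GRCm38 chromosome 8, 107388225 to 107403206, minus strand, 6 exons) encodes NAD(P)H quinone dehydrogenase 1, which reduces quinones in a single step that avoids radical intermediates. In the libraries labelled knockout it stood at 4.55 and 5.64 FPKM with IL-17A and at 5.37 and 6.15 FPKM unstimulated (cultures 1 and 2). In those labelled heterozygous it stood at 7.05, 10.2 and 8.99 FPKM with IL-17A and at 8.75, 10.5 and 11.1 FPKM unstimulated (cultures 1 to 3). The ranges did not overlap, and heterozygous culture 1 was the lowest of its group. The culture means averaged 5.43 ± 0.664 FPKM for knockout (SD, n = 2) and 9.45 ± 1.35 FPKM for heterozygous (SD, n = 3), a log2 difference of -0.69 (SE 0.15, 95% interval -1.06 to -0.33) that did not pass limma over all genes (adjusted p = 0.606). Within library numbers 1 to 14 the differences were -0.41 with IL-17A and -0.53 unstimulated, and with number set as a term in the culture means the difference was -0.47. Without heterozygous culture 1 it was -0.81 and passed (limma, adjusted p = 0.0424), as it did there in the IL-17A libraries (-0.80, adjusted p = 0.0305) and the unstimulated ones (-0.81, adjusted p = 0.0441). The summed markers of melanocytes, the pigment cells of skin, were also lowest in the knockout cultures and highest in heterozygous cultures 2 and 3. Between knockout cultures 1 and 2 their order was the reverse of that of Nqo1. The marker means were 179 and 171 FPKM in knockout cultures 1 and 2. They were 192 FPKM in heterozygous culture 1 and 397 and 320 FPKM in heterozygous cultures 2 and 3. The part of melanocytes in the Nqo1 difference was not tested, and in bulk RNA fewer cells of a type and less RNA per cell cannot be told apart.

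Hmox1 (ENSMUSG00000005413, chromosome 8, 75093621 to 75100589, plus strand, 5 exons) encodes haem oxygenase 1, which breaks haem down to biliverdin, iron and carbon monoxide. It stood at 24.6 and 22.1 FPKM with IL-17A and at 26.8 and 25.4 FPKM unstimulated in knockout cultures 1 and 2. In heterozygous cultures 1 to 3 it stood at 38.0, 40.6 and 34.3 FPKM with IL-17A and at 38.0, 43.3 and 34.0 FPKM unstimulated. The groups did not overlap, and heterozygous culture 1 lay in the middle of its own group. The culture means were 24.7 ± 1.38 FPKM (SD, n = 2) for knockout against 38.0 ± 3.89 FPKM (SD, n = 3) for heterozygous, a log2 difference of -0.60 (SE 0.13, limma adjusted p = 0.606). It was -0.60 again both with number set as a term and without heterozygous culture 1 (adjusted p = 0.0713). Within numbers 1 to 14 it was -0.68 with IL-17A and -0.53 unstimulated. Without heterozygous culture 1 the IL-17A comparison passed (-0.65, limma adjusted p = 0.046) and the unstimulated one did not (-0.54, adjusted p = 0.112). As for Nqo1, that fit cannot tell genotype and number set apart.

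The thioredoxin arm, which keeps protein thiols reduced, held 1 gene with the same order of libraries and 1 without. Txnrd1 (ENSMUSG00000020250, chromosome 10, 82833951 to 82897712, plus strand, up to 15 exons) encodes the cytosolic thioredoxin reductase. It stood at 52.1 and 63.3 FPKM with IL-17A and at 51.8 and 61.0 FPKM unstimulated in knockout cultures 1 and 2, against 69.2, 74.6 and 72.3 FPKM with IL-17A and 68.9, 72.4 and 66.5 FPKM unstimulated in heterozygous cultures 1 to 3. Every knockout library was below every heterozygous one, by a margin that was wide for knockout culture 1 and narrow for culture 2. The difference of culture means was -0.31 on the log2 scale (SE 0.12, limma adjusted p = 0.606), -0.28 with number set as a term and -0.33 without heterozygous culture 1. In the unstimulated comparison it was -0.18 without knockout culture 1, against -0.30 with all cultures.

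Srxn1 (ENSMUSG00000032802, chromosome 2, 152105516 to 152111376, plus strand, 2 exons) encodes sulfiredoxin, which restores over-oxidised peroxiredoxins. It stood at 13.8 and 14.1 FPKM with IL-17A and at 10.6 and 11.5 FPKM unstimulated in knockout cultures 1 and 2. In heterozygous cultures 1 to 3 it stood at 13.9, 10.7 and 12 FPKM with IL-17A and at 12, 11.7 and 9.44 FPKM unstimulated. The genotypes overlapped (log2 difference of culture means 0.10, SE 0.12, limma adjusted p = 0.694). It was 0.17 without heterozygous culture 1, and the sign turned to -0.05 with number set as a term.

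Of the 4 genes for glutathione supply, Slc7a11 and Gclm were lower, and Gclc higher, in all 6 libraries numbered 1 to 14 than in the 4 numbered 33 to 38, and Gsr was neither. Such a separation of the number sets was common, in 18.4% of tested genes for lower and 17.4% for higher, and Nqo1 and Me1 showed it too. Slc7a11 (ENSMUSG00000027737, chromosome 3, 49892526 to 50443614, minus strand, up to 12 exons) encodes xCT, the transporter that brings in cystine for glutathione. In knockout cultures 1 and 2 it stood at 4.92 and 6.90 FPKM with IL-17A and at 5.17 and 6.12 FPKM unstimulated. In heterozygous cultures 1 to 3 it stood at 6.95, 9.44 and 9.67 FPKM with IL-17A and at 5.65, 8.58 and 8.55 FPKM unstimulated. Heterozygous culture 1 lay inside the knockout range unstimulated and just above it with IL-17A, and the 4 libraries of heterozygous cultures 2 and 3 were above all 6 others. The culture means differed by -0.42 on the log2 scale (SE 0.19, limma adjusted p = 0.606), by -0.11 with number set as a term and by -0.58 without heterozygous culture 1 (adjusted p = 0.0747). A Slc7a11 transcript aligned over 483 bp at 93.4% identity with Tuba1a, an alpha-tubulin gene at up to 460 FPKM, and the sources used here do not say how such reads were divided, which makes its value uncertain.

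Gclc (ENSMUSG00000032350, chromosome 9, 77754535 to 77794485, plus strand, up to 16 exons) encodes the catalytic subunit of glutamate-cysteine ligase, the enzyme that sets the pace of glutathione synthesis. It ran the other way, with 23.1 and 24.8 FPKM with IL-17A and 25.3 and 27.6 FPKM unstimulated in knockout cultures 1 and 2, against 23.2, 18 and 18.2 FPKM with IL-17A and 25.1, 19.1 and 20.5 FPKM unstimulated in heterozygous cultures 1 to 3. The lower values were those of heterozygous cultures 2 and 3, while both libraries of heterozygous culture 1 lay inside the knockout range. The difference of culture means was 0.28 (SE 0.14, limma adjusted p = 0.606), 0.06 with number set as a term and 0.39 without heterozygous culture 1 (adjusted p = 0.0812).

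Gclm (ENSMUSG00000028124, chromosome 3, 122245557 to 122270732, plus strand, up to 8 exons) encodes the modifier subunit of the same ligase. It lay between 5.81 and 6.20 FPKM in the 4 knockout libraries (median 5.88) and between 6.06 and 7.26 FPKM in the 6 heterozygous ones (median 6.65). The overlap came from heterozygous culture 1, at 6.06 FPKM with IL-17A and 6.38 FPKM unstimulated, and the log2 difference was -0.13 (SE 0.10, limma adjusted p = 0.606), -0.06 with number set as a term and -0.17 without heterozygous culture 1. The gene shares exon sequence with 2 other gene models, 1 of them on the same strand, and the larger of these overlaps is 296 bp. Gclm and Slc7a11 share chromosome 3 with Bcl10, at 23.7 Mb and 95.5 Mb from it.

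Gsr (ENSMUSG00000031584, chromosome 8, 33652523 to 33698163, plus strand, up to 13 exons) encodes glutathione reductase, which returns oxidised glutathione to its reduced form. It was the steadiest of the 10 genes, with 26.8 to 30.8 FPKM (median 30.2) in knockout libraries and 28.0 to 31.9 FPKM (median 30.0) in heterozygous ones. The log2 difference of culture means was -0.02 (SE 0.10, 95% interval -0.27 to 0.23, limma adjusted p = 0.917) and again -0.02 without heterozygous culture 1.

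Of the enzymes that supply NADPH, G6pdx (ENSMUSG00000031400, chromosome X, 74409483 to 74429194, minus strand, up to 13 exons), which opens the pentose phosphate pathway, overlapped between genotypes. It had 23.8 to 27.0 FPKM (median 24.5) in knockout and 19.3 to 25.8 FPKM (median 24.6) in heterozygous libraries, with a log2 difference of 0.08 (SE 0.13, limma adjusted p = 0.767). It was 0.15 without heterozygous culture 1, and the sign was negative, at -0.05, with number set as a term. G6pdx shares 418 bp of exons with Ikbkg on the opposite strand, and its autosomal copy G6pd2, 93.2% identical over 2332 bp, had at most 1.22 FPKM. Me1 (ENSMUSG00000032418, chromosome 9, 86581371 to 86695953, minus strand, up to 14 exons), the cytosolic malic enzyme, had 10.0 and 12 FPKM with IL-17A and 10.9 and 11.7 FPKM unstimulated in knockout cultures. It had 12.8, 13.2 and 14.0 FPKM with IL-17A and 11.4, 13.5 and 13.3 FPKM unstimulated in heterozygous cultures. Only the unstimulated library of heterozygous culture 1 overlapped the knockout range. The log2 difference was -0.21 (SE 0.11, limma adjusted p = 0.606), -0.11 with number set as a term and -0.26 without heterozygous culture 1. Me1 has near-identical copies in the genome, among them Gm48795 at 98.7% identity over 1159 bp, so its value is uncertain.

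**Figure D2:**
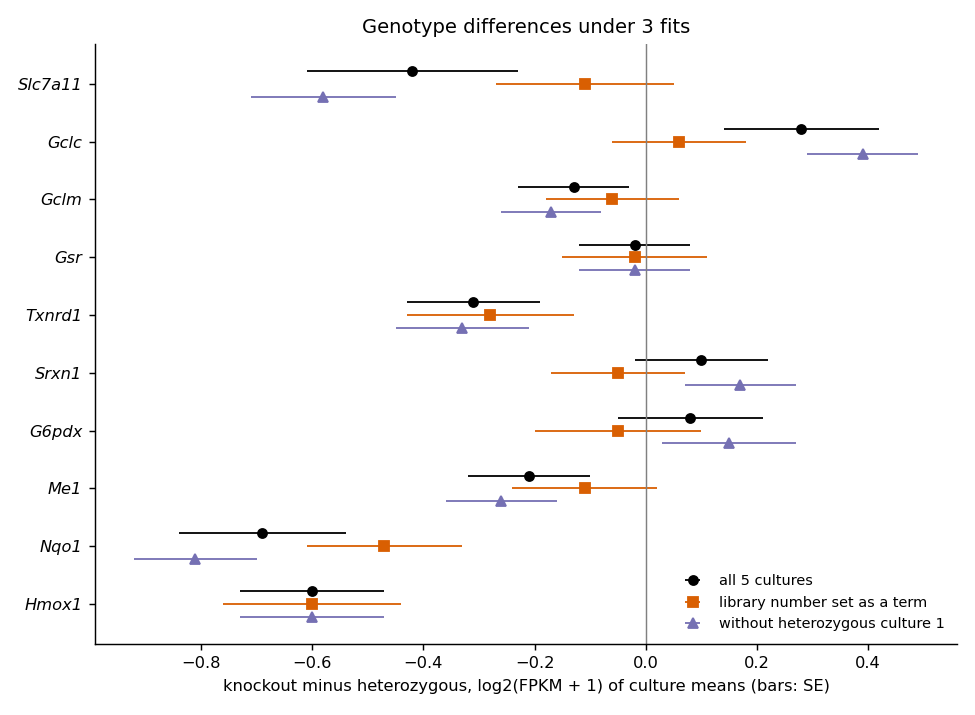
Knockout minus heterozygous difference of the culture means on the log2(FPKM + 1) scale (horizontal axis) for each gene, with bars of 1 standard error. Black circles use all 5 cultures, orange squares add the library number set as a term, and purple triangles leave out heterozygous culture 1. The orange fit sets the knockout cultures against heterozygous culture 1 alone, the culture whose Bcl10 level goes against its label. Hmox1 stays at -0.60 in all 3 fits and Nqo1 lies between -0.81 and -0.47, whereas Slc7a11 moves between -0.58 and -0.11 and Gclc between 0.06 and 0.39.

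Counted over the set, 3 of 10 genes (Nqo1, Hmox1 and Txnrd1) were lower in all 4 knockout libraries than in all 6 heterozygous ones, against 2.21% of the 12054 tested genes, and 0 of 10 were higher in all of them, against 3.09%. Set against heterozygous culture 1 alone, within numbers 1 to 14, the same 3 genes were lower in all 4 knockout libraries (7.65% of tested genes) and 0 were higher (8.29%). In the split by number set, 4 of 10 genes (Nqo1, Gclm, Slc7a11 and Me1) were lower in all 6 libraries numbered 1 to 14 than in the 4 numbered 33 to 38 (18.4% of tested genes), and 1 of 10, Gclc, was higher (17.4%). Nqo1 is in both counts, and Hmox1 and Txnrd1 are not in the second. None of these counts is a test.

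By limma on log2(FPKM + 1), with Benjamini-Hochberg adjustment over the 12054 genes and a threshold of 0.05, 0 of 10 members passed between knockout and heterozygous culture means (0% of tested genes passed). At an unadjusted p under 0.05 there were 3 members, Nqo1, Hmox1 and Txnrd1, and 581 genes in all. In the unstimulated libraries 0 of 10 passed (0% of tested genes), with 3 members and 562 genes at an unadjusted p under 0.05. In the IL-17A libraries 0 of 10 passed (0.0249% of tested genes), with 5 members and 981 genes, the 5 being those 3, Slc7a11 (-0.49) and Me1 (-0.26). The median log2 difference of culture means was -0.17 over the 10 members and -0.02 over all tested genes, and without heterozygous culture 1 it was -0.22 and -0.02. With 2 against 3 cultures there are 10 splits, and an exact permutation test of a single gene that doubles the one-sided p cannot go below 0.2. Without heterozygous culture 1, 2 members passed in the IL-17A libraries and 1 in the unstimulated libraries and in the culture means, as given above, where 808, 126 and 209 genes passed in all.

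**Figure D3:**
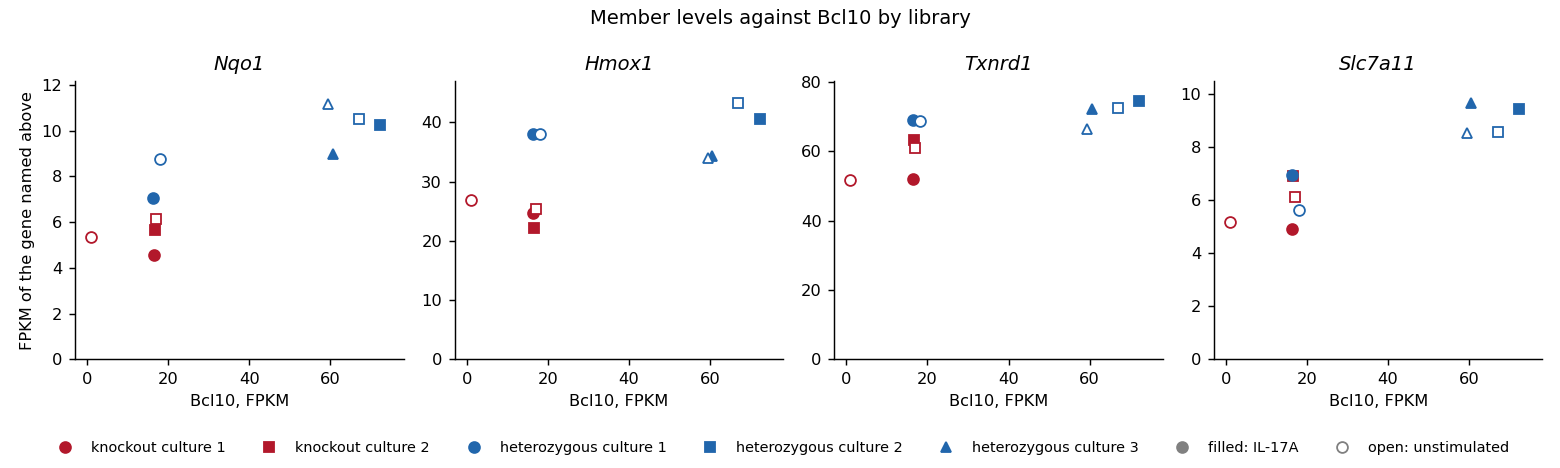
FPKM of Nqo1, Hmox1, Txnrd1 and Slc7a11 (vertical axes, from 0) against FPKM of Bcl10 (horizontal axes) in the 10 libraries, filled with IL-17A and open unstimulated. The blue circles of heterozygous culture 1 have 16.3 and 18 FPKM of Bcl10, near 3 of the 4 knockout libraries (the other is at 0.969 FPKM), and lie above every red point for Nqo1, Hmox1 and Txnrd1, and beside the red points for Slc7a11.

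With IL-17A, the members' average differences lay between -0.18 and 0.20 on the log2 scale. Nqo1 was lower with IL-17A in 5 of 5 cultures, by 0.20 and 0.11 on the log2 scale in knockout cultures 1 and 2 and by 0.28, 0.03 and 0.28 in heterozygous cultures 1 to 3. The average over the 5 cultures, each set against its own unstimulated library, was -0.18 (SE 0.05, limma adjusted p = 0.633). Gclc was also lower in 5 of 5 cultures, by 0.08 to 0.16, with an average of -0.13 (SE 0.03, adjusted p = 0.602). Such a pattern was seen in 2 of 10 members and in 4.29% of tested genes. Txnrd1 was the 1 member of 10 above its unstimulated level in 5 of 5 cultures (3.65% of tested genes), by 0.01 to 0.12.

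Srxn1 had the largest average, 0.20 (SE 0.07, limma adjusted p = 0.781). It was higher by 0.35 and 0.27 in both knockout cultures and by 0.19 and 0.32 in heterozygous cultures 1 and 3, but was at -0.12 in culture 2. The difference between the genotypes' responses was 0.18 (95% interval -0.25 to 0.61). Slc7a11 averaged 0.13 (SE 0.05, adjusted p = 0.827) and was higher in 4 of 5 cultures, with knockout culture 1 at -0.06. Hmox1 averaged -0.08, Gclm -0.05, G6pdx -0.04, Gsr -0.01 and Me1 0.02, each with cultures on both sides of 0.

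**Figure D4:**
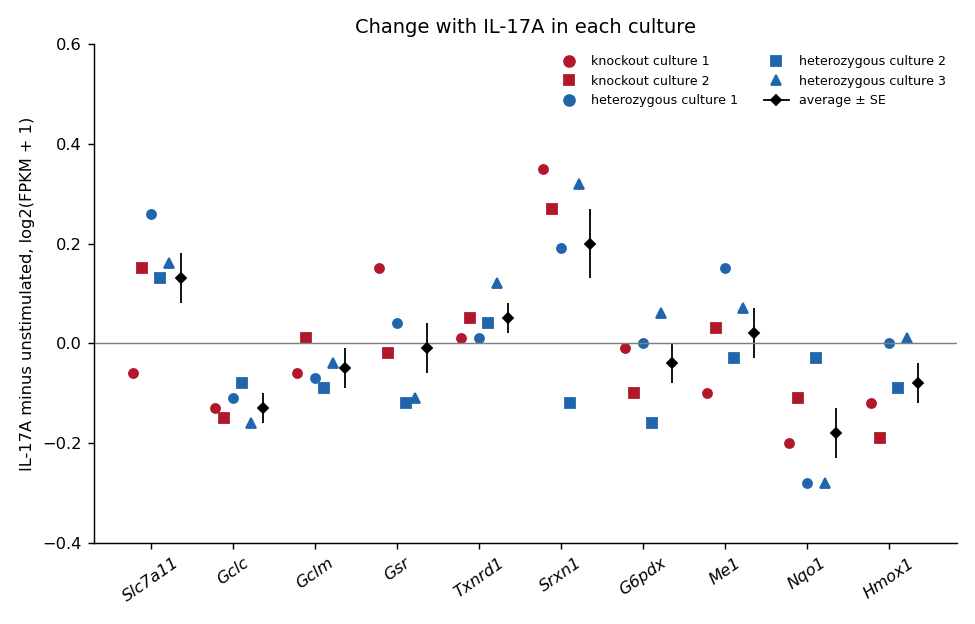
IL-17A minus unstimulated difference on the log2(FPKM + 1) scale (vertical axis) for each gene in each of the 5 cultures, with the average and its standard error as black diamonds. Nqo1 and Gclc lie below 0 in all 5 cultures and Txnrd1 at or above 0.01 in all 5, and the averages run between -0.18 for Nqo1 and 0.20 for Srxn1.

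By limma, 0 of 10 members passed for IL-17A in the knockout cultures (0.0249% of tested genes passed), with 0 members and 176 genes at an unadjusted p under 0.05. In the heterozygous cultures 0 of 10 passed (0.0083% of tested genes), with 0 members and 162 genes. With culture as a fixed replicate block 0 genes passed in either genotype, and with culture as a random block 14 genes passed in knockout and 15 in heterozygous cultures, none of them a member. For the average over the 5 cultures 0 of 10 passed (0.149% of tested genes), with 3 members (Nqo1, Gclc and Srxn1) and 727 genes. For the difference between the genotypes' responses 0 of 10 passed (0% of tested genes), with 0 members and 143 genes. The median over the members was -0.03 for IL-17A in each genotype and for the average. The 2 genotypes' responses share no library, whereas the genotype comparisons and the responses use the same libraries.

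The 12 regulators of NRF2 had a median log2 difference of culture means of -0.05, with 5 positive and 7 negative. Nfe2l2, which encodes NRF2 itself, had 44.3 to 50.9 FPKM in knockout libraries and 41.7 to 49.9 FPKM in heterozygous ones, a log2 difference of culture means of 0.09 (SE 0.11). Keap1 had 12.2 to 15.1 FPKM in knockout and 11.1 to 15.0 FPKM in heterozygous libraries (0.08, SE 0.11). Bach1, the repressor that competes with NRF2, had 18.1 to 19.4 FPKM in knockout and 16.0 to 20.7 FPKM in heterozygous libraries (0.05, SE 0.12). Differences were -0.13 for Cul3, -0.28 for Rbx1, -0.01 for Btrc and 0.04 for Gsk3b, which belong to the ligases and the kinase that mark NRF2 for destruction. None of these 7 genes passed (limma, adjusted p = 0.606 to 0.981). Without heterozygous culture 1 the list median was -0.07 and 0 of 12 regulators passed, with Rbx1 at -0.41, Nfe2l2 at 0.13 and Keap1 at 0.14.

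Among the small MAF partners, Maff stood apart. It had 14.1 and 13.3 FPKM with IL-17A and 11.8 and 12.7 FPKM unstimulated in knockout cultures 1 and 2, against 17.1, 22.3 and 18.3 FPKM with IL-17A and 16.9, 17.3 and 16.1 FPKM unstimulated in heterozygous cultures 1 to 3. The groups did not overlap, and heterozygous culture 1 was above all 4 knockout libraries (log2 -0.44, SE 0.11, limma adjusted p = 0.606, and -0.47 without that culture). With number set as a term the Maff difference was -0.37. Maff was the 1 regulator of 12 lower in every knockout library than in every heterozygous one (2.21% of tested genes), and 0 of 12 were higher (3.09%). Mafg (-0.09) and Mafk (-0.12) overlapped between genotypes. Sqstm1, whose protein p62 sequesters KEAP1, had 54.2 to 62.3 FPKM in knockout libraries, 78.6 and 54.8 FPKM in the IL-17A and unstimulated libraries of heterozygous culture 1, and 88.8 to 153 FPKM in the remaining heterozygous libraries (log2 -0.69, SE 0.28, limma adjusted p = 0.606). The Sqstm1 difference was -0.18 with number set as a term and -0.95 without heterozygous culture 1 (adjusted p = 0.0567). Nfe2l1, the NRF2 relative that drives proteasome genes, was lower with IL-17A in 4 of 5 cultures, at 15.4 and 29.1 FPKM in knockout cultures 1 and 2 and 15.0 and 14.8 FPKM in heterozygous cultures 1 and 2, against 46.0, 46.1, 42.8 and 50.2 FPKM in their unstimulated libraries. Heterozygous culture 3 was the other way round, with 57.0 FPKM with IL-17A and 13.3 FPKM unstimulated. The average over the 5 cultures was -0.66 (SE 0.54, limma adjusted p = 0.932). Of 12 regulators, 0 passed between culture means and 2 (Maff and Sqstm1) were at an unadjusted p under 0.05, as were 581 of the 12054 genes.

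With IL-17A, 5 of 12 regulators were higher in 5 of 5 cultures, against 3.65% of tested genes. Sqstm1 averaged 0.30 (SE 0.07, limma adjusted p = 0.365), with 0.14 to 0.51 by culture. Maff averaged 0.17 (adjusted p = 0.74), Mafk 0.12 (0.8), Mafg 0.10 (0.844) and Rbx1 0.05 (0.915). Nfe2l2 averaged -0.05 and Keap1 0.01. Of 12 regulators 0 passed, and 3 (Sqstm1, Maff and Mafk) were at an unadjusted p under 0.05, as were 727 of the 12054 genes.

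Other NRF2 targets were mixed, with 9 positive and 15 negative differences. Of 26 genes, 24 were tested and 0 passed between culture means by limma, with a median of -0.10. At an unadjusted p under 0.05 there were 2 lower and 1 higher, and 581 of all 12054 tested genes. Pir (0.946 FPKM on average) and Adh7 (0.2 FPKM) were not tested. The iron store subunits Fth1 and Ftl1 had the highest levels, 794 and 375 FPKM on average, with log2 differences of -0.23 and -0.09. The glutathione peroxidase gene Gpx2 (1.20 FPKM, log2 0.04) and the mitochondrial transporter gene Abcb6 (1.12 FPKM, log2 -0.07) were lowest. In every knockout library 1 gene of 24, Fth1, was below all heterozygous libraries (2.21% of tested genes) and 1, the microsomal glutathione transferase gene Mgst1, was above them (3.09%), shares near those of all genes. The 3 genes at an unadjusted p under 0.05 were Gsta4 (-0.65), Esd (-0.54) and Osgin1 (0.93), named after their values were seen. Osgin1 had 2.49 to 2.81 FPKM in knockout libraries, 1.02 FPKM (IL-17A) and 3.45 FPKM (unstimulated) for heterozygous culture 1, and 0.416 to 0.680 FPKM for the remaining heterozygous libraries, so all 6 libraries numbered 1 to 14 were above the 4 others. Without heterozygous culture 1 the list median was -0.10 again, and Osgin1 (1.25) and Esd (-0.70) passed, in a fit where 1.73% of tested genes passed.

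Antioxidant enzymes outside the classical NRF2 set had a median of -0.08 over 21 tested of 22 genes, with 0 passing and 1 at an unadjusted p under 0.05. Gpx1 (444 FPKM on average, log2 -0.18) and Sod1 (68.3 FPKM, -0.14) were highest and Nnt (1.98 FPKM, 0.28) and Msra (1.57 FPKM, 0.11) lowest, and Gpx3 was not tested. The median was -0.09 without heterozygous culture 1, and 0 of 21 passed. The 16 genes of the ATF4 amino acid response, a programme that shares Slc7a11 with NRF2, had a median of -0.25, with 14 negative, 0 passing and 5 at an unadjusted p under 0.05 (581 of all 12054 tested genes). Of them 3 of 16 (Chac1, Ddit3 and Mthfd2) were lower in all 4 knockout libraries than in all 6 heterozygous ones, against 2.21% of tested genes. Higher in all of them were 0 of 16 (3.09%). Set against heterozygous culture 1 alone, 6 of 16 were lower (7.65%) and 0 higher (8.29%). By number set, 8 of 16 were lower in all libraries numbered 1 to 14 than in those numbered 33 to 38, against 18.4% of tested genes. The list median was -0.11 with number set as a term. Its most abundant members, Atf4 (283 FPKM) and Phgdh (127 FPKM), had log2 differences of -0.70 and -0.25, and the least abundant, Ddit3 (14.1 FPKM) and Aldh1l2 (5.55 FPKM), -0.85 and -0.16. The median was -0.42 without heterozygous culture 1, where Atf4 and the pseudokinase gene Trib3 passed, as did 1.73% of tested genes. The 10 heat shock genes had a median of 0.29, with 0 passing and 3 at an unadjusted p under 0.05 (581 of all 12054 tested genes). Among them Hspa8 (569 FPKM) had 0.19, Hspb1 (561 FPKM) 0.52, Bag3 (29.7 FPKM) 0.26 and Hspa1a (26.6 FPKM) 0.60. In all libraries numbered 1 to 14, 5 of 10 (Hspa1b, Hsph1, Hspb1, Bag3 and Hspd1) were higher than in those numbered 33 to 38, against 17.4% of tested genes. The list median was 0.07 with number set as a term and 0.44 without heterozygous culture 1, where Hsph1 passed, as did 1.73% of tested genes.

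**Figure D5:**
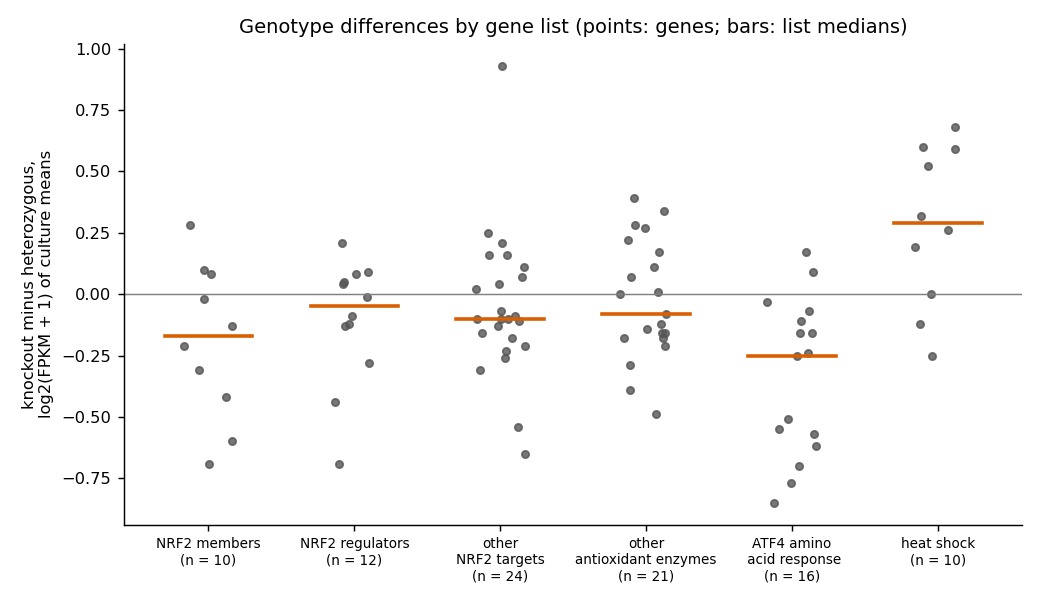
Knockout minus heterozygous difference of the culture means on the log2(FPKM + 1) scale (vertical axis) for each tested gene of the 10 members and of 5 related lists, with orange bars at the list medians. The medians are -0.17 for the members, -0.05 for regulators, -0.10 for other NRF2 targets, -0.08 for other antioxidant enzymes, -0.25 for the ATF4 list and 0.29 for heat shock genes.

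Across the 10 libraries the members did not move as 1 block. Pearson correlations of log2(FPKM + 1) between the 45 pairs of members ran between -0.84 and 0.96 with a median of 0.21, over libraries that share cultures, number sets and depth. Correlated with the mean of the centred values of all members, of which each is a part, Txnrd1 (0.96), Nqo1 and Me1 (0.91 each), Hmox1 and Slc7a11 (0.83 each) and Gclm (0.72) followed it. Gsr (0.37), G6pdx (-0.22), Srxn1 (-0.25) and Gclc (-0.64) did not. The mean itself was -0.19 to -0.05 in knockout libraries, 0.06 with IL-17A and 0.04 unstimulated for heterozygous culture 1, and 0.07 to 0.12 for the remaining heterozygous libraries. Outside the set, the genes most like this mean over the 10 libraries were Aldh18a1, Cdkal1 and Mthfd2 (0.96 each) and Tars and Cpox (0.94 each).

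The cell type labels were checked with marker lists, and their part in the values above was not tested. Krt5 and Krt14, the basal keratinocyte keratins, stood at 3723 to 6426 FPKM in every library, whereas Krt15 and the suprabasal Krt1 and Krt10 were at 0 to 1.78 FPKM. The 8 keratinocyte markers summed to 1.08e+04 to 1.18e+04 FPKM in knockout and 8.35e+03 to 1.18e+04 FPKM in heterozygous libraries. All 5 melanocyte markers were present, with sums of 168 to 180 FPKM in knockout libraries, 188 to 196 FPKM for heterozygous culture 1, and up to 406 FPKM in the other heterozygous libraries. Nqo1, Slc7a11, Me1 and Gclm were likewise highest in heterozygous cultures 2 and 3. The 6 fibroblast markers summed to 28.5 and 28.7 FPKM in knockout culture 2 and to at most 0.454 FPKM elsewhere. Their mean sum was 0.288 FPKM in knockout culture 1 and 28.6 FPKM in knockout culture 2. Nqo1, Hmox1 and Txnrd1 stood below every heterozygous library in both, and a part of fibroblasts in this was not tested. Of 7 leukocyte markers 5 (Ptprc, Adgre1, Lyz2, Cd3e and Cd207) were listed at 0 in every library, and nearly all of the sum of 5.10 to 10.5 FPKM was Cd68. The 4 endothelial markers summed to 4.40 to 5.13 FPKM in knockout and 5.17 to 6.04 FPKM in heterozygous libraries, mostly Kdr, with Cdh5 and Tek at 0 to 0.0580 FPKM.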

How the data were processed

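The deposited table holds FPKM per Ensembl gene for 10 bulk RNA-seq libraries. Per the submitters' processing notes, the authors used HISAT2, SAMtools, StringTie and DESeq2 with build mm10. Versions, annotation, strand setting and each tool's role were not stated there. Values were turned here from the deposited FPKM to log2(FPKM + 1), which understates the change of low genes. The 12054 genes averaging 1 FPKM or more were fitted by limma 3.58.1 (trend) in R 4.3.3, with Benjamini-Hochberg adjustment and a threshold of 0.05. The 7 comparisons were IL-17A within each genotype, genotype within each treatment, the difference in response, IL-17A averaged over 5 cultures with culture as a term, and genotype over culture means. Estimated depth came from the steps between low FPKM values. At a tolerance of 0.05, 46.2% to 52.4% of values were near whole fragments, so reads were not recovered and no count test was run. The scale was set on the most common low value, taken as 1 fragment, so part of this share was fixed in advance. The 10% that a scale not set on these data would give is therefore no fair reference, and the depths remain estimates. Such floors cover counting error only.

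Replicate numbers were taken from the labels as cultures within a genotype. Libraries with the same number were treated as paired. Between them, deviations from the group means correlated at 0.227 for the knockout cultures and at 0.607, 0.488 and 0.137 for the heterozygous cultures. With 2 libraries per knockout group both knockout values must be equal, and the heterozygous values also hold the number set. Libraries with different numbers were not compared, so these correlations cannot show the pairing. The labels do not state what the number marks. The members and gene lists were chosen with earlier results of these data known. The text names every member, every regulator, the 2 highest and 2 lowest of each other list and the 5 genes most like the member mean, and other genes are said to have been chosen after their values were seen, or are given as the members of a count. Alternatives were TPM scaling, a pseudocount of 0.1, other filters, replicate blocks, number set as a term, library weights, the groups compared alone, numbers 1 to 14 alone and each replicate left out. The fit was tested on simulated data with independent noise in each library. Those data held no culture or number-set effect, so the test does not cover either. Promoter windows are from RefSeq and annotation from GRCm38, to which 32919 identifiers matched.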

Additional observations from a re-analysis of the deposited data

How the results depend on the processing

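No member passed under any alternative except library weights and the fits without heterozygous culture 1. Nqo1, Hmox1, Txnrd1 and Slc7a11 were negative for the culture means in all 15 settings, at -0.81 to -0.47, -0.67 to -0.45, -0.44 to -0.18 and -0.58 to -0.11. With library weights, which spanned 170-fold and whose estimation stopped before it converged, 6 members passed for IL-17A in heterozygous cultures, 6 for genotype with IL-17A, 8 for culture means and 6 unstimulated. Under these weights a large part of all tested genes passed in the same comparisons, as counted in the next paragraph. These member counts are therefore not a result about the members. Leaving out replicates gave 0 to 2 members for genotype with IL-17A, 0 to 1 for culture means and 0 to 1 unstimulated. The cause was not tested.

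All-gene counts moved as follows, for IL-17A in knockout (3 in the fit reported), IL-17A in heterozygous (1), the IL-17A average (18), the difference in response (0), genotype with IL-17A (3), unstimulated (0) and culture means (0). Library weights gave 11, 4656, 31, 17, 3551, 2929 and 5165 in that order, and put the log2 difference of Nfe2l1 for IL-17A in heterozygous cultures at 1.92 and past the threshold, against -0.38 (not past it) in the fit reported. Leaving out replicates gave 0 to 10, 0 to 3, 0 to 14, 0 to 6, 0 to 808, 0 to 126 and 0 to 209, and the highest genotype counts were without heterozygous culture 1. TPM scaling gave 1 for IL-17A in knockout, 2 in heterozygous and 0 for genotype with IL-17A. A pseudocount of 0.1 gave 2 for IL-17A in heterozygous cultures. No filter gave 5 for IL-17A in knockout, 6 for the average, 1 for the difference, 6 for genotype with IL-17A and 2 unstimulated. Number set as a term gave 5 for IL-17A in heterozygous cultures and 2 each for unstimulated and culture means. Numbers 1 to 14 alone gave 6 for IL-17A in heterozygous cultures, 4 for the average, 6 for the difference and 8 each for genotype with IL-17A and unstimulated. The groups compared alone gave 0 for IL-17A in heterozygous cultures and 1 for each genotype comparison within a treatment.

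With culture as a fixed replicate block, IL-17A called 0 genes in each genotype, and with a random block 14 in knockout, 15 in heterozygous and 5 for the difference. With no replicate block the average called 6. No block changed a member's call.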
